A study of Mus musculus with 2 samples.

Results

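The mouse carries a pair of insulin genes, Ins1 and Ins2, and the values below are those of these 2 genes, chosen by symbol, among the 32285 genes counted in single cells of mouse pancreatic islets. Islets were taken from 12-week-old female mice of a C57BL/6 background, in 1 library labelled SpopβKO, with deletion of Spop in beta cells, and in 1 library labelled Spop fl/fl, the floxed mice that served as controls. The SPOP protein picks substrates for a CUL3 ubiquitin ligase, and the series asks how it bears on the unfolded protein response of beta cells. Hand-picked islets recovered for 3 days in medium with 10 mM glucose, were dispersed with 0.25% trypsin, passed a 40 µm strainer and a removal of dead cells and debris, and were counted with the 10x Genomics 3′ v3.1 chemistry. The Cre driver, whether the Spop fl/fl mice carried Cre, the deleted exons and the number of mice pooled per library are not given in the sources used here.

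With 1 library per genotype there was no replicate and no test. Every difference below is one between these 2 libraries, and each interval is an exact 95% interval that covers counting error only. The SpopβKO-labelled library held 89977773 UMIs (unique molecular identifiers, 1 per captured RNA molecule) in 10033 barcodes and the Spop fl/fl-labelled library held 82541585 UMIs in 7768 barcodes. After barcodes with fewer than 500 genes or with mitochondrial UMIs above 15% had been dropped, 8842 cells labelled SpopβKO and 6850 labelled Spop fl/fl remained, with medians of 7638.5 and 8870 UMIs. Barcode sequences present in both libraries numbered 21. Spop itself did not check the labels: it measured 79.7 CPM (UMIs per 1000000 UMIs of the summed cells, with library scaling) in insulin-leading cells labelled SpopβKO and 63.8 CPM in those labelled Spop fl/fl. A 3′ library reads near the end of a transcript and the deleted exons are not given. Whether these counts could show the deletion is therefore not known. No doublet caller was run, so doublets remain among the cells.

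Insulin is the hormone by which beta cells lower blood glucose. It is made as preproinsulin, which enters the endoplasmic reticulum, loses its signal peptide, folds as its disulfide bonds form, and is cut to insulin and C-peptide in secretory granules. Ins2 is the ancestral gene with the intron arrangement of other mammals, whereas Ins1 arose in an ancestor of rats and mice as a retroposed copy that lacks the intron within the coding sequence. Both are transcribed in adult beta cells, and both encode a secreted insulin.

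Ins1 (ENSMUSG00000035804) lies on the plus strand of chromosome 19 at 52264297 to 52265476 on mm10 in the GENCODE annotation. Its 2 exons hold the whole coding sequence in exon 2, at 52264624 to 52264947. Ins2 (ENSMUSG00000000215) lies on the minus strand of chromosome 7. Its transcript Ins2-201 spans 142678659 to 142679726 with coding sequence in exons 2 and 3, and the annotated gene spans 142678656 to 142743381. The neighbouring genes Igf2 and Th gave 71 and 398 UMIs in the SpopβKO-labelled library and 68 and 223 in the Spop fl/fl-labelled library, where Ins2 gave 9475462 and 6144339.

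The coding ends of the 2 genes are shown because they are nearly alike, and within this stretch only a few letters tell the genes apart. A 3′ library reads near the end of a transcript. The annotated transcripts run on after the stop codon for 526 bases in Ins1 and for 54 in Ins2. Where the reads of each gene fell was not tested. Capitals mark the positions at which the pair differs, 5 of 108 bases, and each stretch ends with the stop codon.
Ins1, chr19:52264843-52264950, plus strand, exon 2: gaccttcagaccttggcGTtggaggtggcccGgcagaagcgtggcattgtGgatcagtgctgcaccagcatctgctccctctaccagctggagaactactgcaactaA
Ins2, chr7:142678713-142678820, minus strand, exon 3: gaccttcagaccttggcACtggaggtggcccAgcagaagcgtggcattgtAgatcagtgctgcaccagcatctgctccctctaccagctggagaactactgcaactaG

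Aligned over the whole coding sequence, 302 of 333 columns were identical (90.7%), 25 differed and 6 were gaps. The longest run shared by the transcripts Ins1-201 and Ins2-201 was 56 bases, shorter than the 90 bases sequenced from each molecule, so no 90-base window of one was found unaltered in the other. With up to 3 mismatches allowed, 34 windows of each transcript matched the other. A read from these windows with sequencing errors could have been placed on the wrong gene or dropped by the authors' counting, and the size of that effect was not tested here.

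The Ins1 promoter is shown because some of the transcription factors counted below bind insulin promoters through short motifs of this kind. The 250 bases before the RefSeq start (GRCm38.p6, plus strand) have in capitals each CATCTG, the core of an E box, which heterodimers with NEUROD1 bind, and each TAAT, the core of an A box, which PDX1 binds, searched on both strands and written as the plus strand reads.
Ins1 promoter, chr19:52264047-52264296: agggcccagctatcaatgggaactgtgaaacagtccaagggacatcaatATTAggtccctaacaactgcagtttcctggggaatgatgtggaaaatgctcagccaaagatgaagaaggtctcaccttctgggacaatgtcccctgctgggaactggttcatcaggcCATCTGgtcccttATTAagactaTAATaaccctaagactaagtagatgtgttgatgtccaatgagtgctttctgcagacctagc
CATCTG occurred 1 time and TAAT 3 times, with no overlap between them. Of 32851 promoter windows of the same length, 14.4% held CATCTG and 54.9% held TAAT, and 17.3% held TAAT at least 3 times. The promoter table gave a sequence for 1 of the 2 insulin genes.

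Ins2 was the most abundant RNA in both libraries. Ins1 ranked 2 in the SpopβKO-labelled library and 6 in the Spop fl/fl-labelled library. Together the 2 genes took 14.1% of all UMIs in the SpopβKO-labelled library and 8.29% in the Spop fl/fl-labelled library. Cells were assigned by their leading hormone RNA, the highest of Ins1 plus Ins2, Gcg (glucagon), Sst (somatostatin) and Ppy (pancreatic polypeptide) at 1% of UMIs or more, after cells with at least 4 of 6 mesenchymal, endothelial or macrophage markers had been set apart. Insulin-leading cells numbered 7173 (81.1% of kept cells) in the SpopβKO-labelled library and 4007 (58.5%) in the Spop fl/fl-labelled library. All 8 beta-cell markers other than insulin (Iapp, Slc2a2, G6pc2, Mafa, Nkx6-1, Pdx1, Ucn3, Ero1lb) were detected in both sets, at a summed 22493 CPM and 13824 CPM before scaling, with Iapp, the gene of amylin, the largest part of it. All 8 were also detected in summed glucagon-leading cells, at a lower 3051 CPM and 2632 CPM. Detection in a sum over many cells thus does not tell the classes apart.

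In insulin-leading cells Ins1 was higher in the SpopβKO-labelled library, and Ins2 was close to equal. Ins1 measured 43523 CPM in the SpopβKO-labelled library against 13741 CPM in the Spop fl/fl-labelled library, 3.17-fold higher (log2 ratio 1.66, interval 1.66 to 1.67). Ins2 measured 127706 CPM against 120782 CPM, a log2 ratio of 0.08 (interval 0.079 to 0.082). As raw sums, Ins1 had 3129425 UMIs, 436 per cell, in the SpopβKO-labelled library and 664290 UMIs, 166 per cell, in the Spop fl/fl-labelled library. Ins2 had 9182411 UMIs, 1280 per cell, and 5839042 UMIs, 1457 per cell. Per cell, then, Ins1 was higher in the SpopβKO-labelled library while Ins2 was lower, so the small Ins2 difference was positive per UMI and negative per cell.

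Single insulin-leading cells covered a wide range. Ins1 had 11 UMIs at the 5th percentile, 59 at the median and 2458 at the 95th percentile in the SpopβKO-labelled library, against 2, 42 and 578 in the Spop fl/fl-labelled library. Ins2 had 39, 588 and 4909 UMIs against 18, 650 and 5297. For Ins1 the SpopβKO-labelled library was higher at all 3 points, and the ratio was smaller at the median than at either end. For Ins2 it was higher at the 5th percentile and lower at the median and the 95th. The 5th percentiles lay below the medians of glucagon-leading cells of the same libraries, described below. Those medians were 16 and 3 UMIs for Ins1 and 47 and 19 for Ins2. The low end is therefore not read as a difference in expression.

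Against all 8400 genes at a mean of 10 CPM or more in these cells, 6.23% were at least 1.5-fold higher and 3.12% at least 1.5-fold lower in the SpopβKO-labelled library, with a median log2 ratio of −0.05. Ins1 was among the 523 higher genes, and 49 genes had a larger ratio. Ins2 was in neither set, and 2811 genes had a larger ratio.

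The choice of cells bears on these values, since the class itself was cut on insulin. With a gate that used no insulin gene (at least 4 of the 8 other beta markers and under 1% of non-insulin UMIs from any other islet hormone) there were 2977 and 1707 cells. In these, Ins1 per cell was 849 in the SpopβKO-labelled library and 223 in the Spop fl/fl-labelled library, and Ins2 per cell was 1891 and 1528. The log2 ratios were then 2.30 for Ins1 and 0.68 for Ins2. This gate selects in its own way. Its cells were deeper, with medians of 14125 and 15731 UMIs against 7858 and 8966 in insulin-leading cells. Each of its 8 markers also had a higher CPM before scaling in insulin-leading cells labelled SpopβKO. How far this shaped the ratios was not tested. With the 1% limit on the leading hormone set to 5%, the Ins2 log2 ratio was −0.17 and that of Ins1 1.405. With each cell weighted equally they were −0.13 and 1.42, and without the deepest 10% of cells −0.08 and 1.53. Ins1 was higher in the SpopβKO-labelled library under every alternative run, and the direction of Ins2 was not stable.

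The share of Ins1 in all insulin UMIs does not depend on scaling. It was 25.4% (interval 25.39 to 25.44) in insulin-leading cells labelled SpopβKO and 10.2% (10.19 to 10.24) in those labelled Spop fl/fl, 15.2 percentage points apart. In other terms, 2.93 Ins2 molecules were counted per Ins1 molecule in the SpopβKO-labelled library and 8.79 in the Spop fl/fl-labelled library. With the gate free of insulin, which kept deeper cells, the shares were 31.0% and 12.8%.

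Both insulin genes were counted together in nearly every insulin-leading cell. Among insulin-leading cells with at least 100 insulin UMIs, 5672 labelled SpopβKO and 3230 labelled Spop fl/fl, 0 cells in the SpopβKO-labelled library and 2 in the Spop fl/fl-labelled library lacked Ins1, and none in either library lacked Ins2. A count of 0 cells allows a share of up to about 0.0529% in the SpopβKO-labelled and 0.0929% in the Spop fl/fl-labelled library. These limits are approximations and not exact intervals. They hold for a UMI of the gene and not for its expression, since insulin RNA was found in cells of every class. Per 10000 non-insulin UMIs, the 2 genes rank-correlated across cells with a Spearman rho of 0.84 over 4156 cells and 0.91 over 2506 cells with at least 5000 non-insulin UMIs. Cells of 1 library share their capture and their free RNA, so the correlation is a description of these cells.

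The share itself varied widely from cell to cell. The median cell had an Ins1 share of 12.6% in the SpopβKO-labelled library (5th to 95th percentile 4.58 to 47.1%) and 5.88% in the Spop fl/fl-labelled library (2.49 to 16.9%). The SD between cells beyond counting was 13.7 points and 5.72 points, where counting alone gave 1.69 and 1.08 points. An Ins1 share of 20% or more was found in 1732 cells (30.5%, interval 29.3 to 31.8) labelled SpopβKO and in 132 cells (4.09%, 3.43 to 4.83) labelled Spop fl/fl. Ins1 made up at least 50% of insulin UMIs in 197 cells of the SpopβKO-labelled library and in 2 of the Spop fl/fl-labelled library. In the SpopβKO-labelled library, cells at 20% or more held 52.9% of the insulin UMIs of these cells, against 13.4% in the Spop fl/fl-labelled library. The summed share lay above that of the median cell in both.

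**Figure D1:**
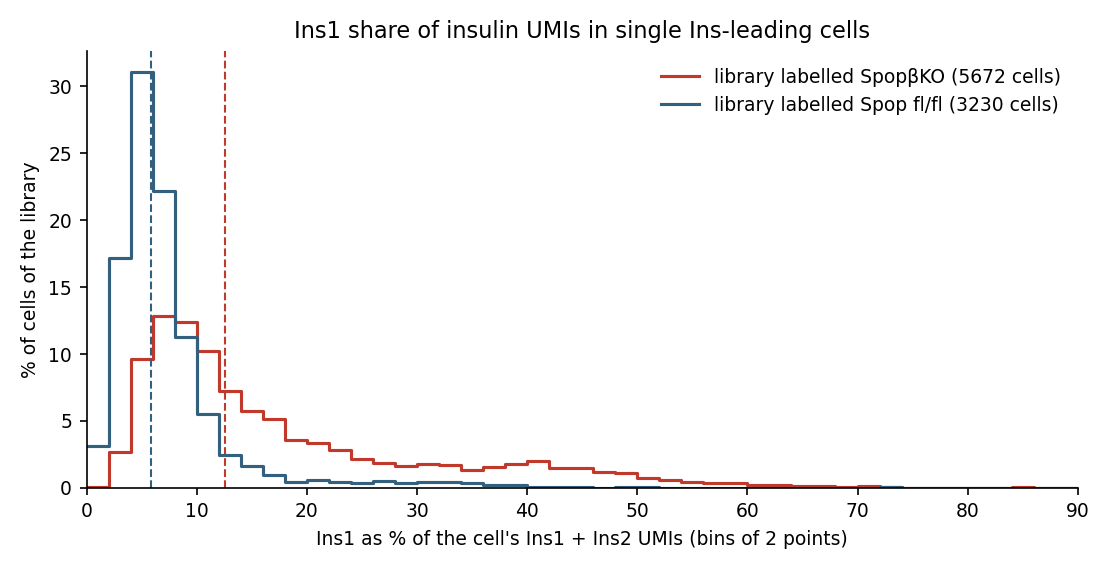
Distribution of the Ins1 share (percent of a cell's Ins1 plus Ins2 UMIs, x axis) over insulin-leading cells with at least 100 insulin UMIs, as percent of each library's cells (y axis), with medians dashed. The SpopβKO-labelled library has its median at 12.6% and a long tail to the right, and the Spop fl/fl-labelled library has a narrow peak with its median at 5.88%.

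Summed over cells, those richer in insulin RNA had a higher Ins1 share. Ins1 UMIs count both in the insulin level and in the share, so part of this relation is built in. With Ins2 alone, the Ins1 share had a Spearman rho of 0.235 over 4156 cells labelled SpopβKO. Over 2506 cells labelled Spop fl/fl it was 0.192. In insulin-leading cells with insulin under 5% of UMIs, Ins1 made up 13.3% of insulin UMIs in the SpopβKO-labelled library and 6.41% in the Spop fl/fl-labelled library. In the band from 20 to 30% the shares were 26.0% and 8.66%. At 50% or more they were 32.0% (181 cells) and 15.7% (194 cells). The SpopβKO-labelled library was higher in all 7 bands, and its share was level from the band at 30 to 40% (32.6%) upwards, whereas the Spop fl/fl-labelled share was higher in each band than in the one below it. The median cell followed the sums only at the upper end: it had 16.5%, 11.7% and 30.04% under 5%, at 10 to 20% and at 50% or more insulin in the SpopβKO-labelled library, and 6.09%, 5.79% and 10.2% in the Spop fl/fl-labelled library.

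Depth gave another shape. In cells of 1000 to 2500 UMIs the summed Ins1 share was 20.5% in the SpopβKO-labelled library and 8.60% in the Spop fl/fl-labelled library. In cells of 2500 to 5000 UMIs it was 14.0% and 8.04%, and in cells of 20000 to 40000 UMIs 28.6% and 12.2%. The median cell had 11.8% and 7.07% at 2500 to 5000 UMIs and 15.2% and 5.43% at 20000 to 40000, so in the Spop fl/fl-labelled library it was lower in deep cells while the sum was higher. The shallow end held much of the class: 1888 cells (26.3%) labelled SpopβKO and 800 (19.97%) labelled Spop fl/fl had under 2500 UMIs, with medians of 72 and 31 insulin UMIs. Those medians lay near the 62 and 22 insulin UMIs of the median glucagon-leading cell of the same libraries, described below. They held 1.65% and 0.807% of the insulin UMIs of the class, and were called insulin-leading by 1% of a small total. All these bands are of total UMIs, which include insulin UMIs. By bands of non-insulin UMIs the summed Ins1 share was not highest in the deepest cells. In the SpopβKO-labelled library it was 16.2% at 2500 to 5000, 28.8% at 10000 to 20000 and 22.5% at 20000 to 40000. In the Spop fl/fl-labelled library it was 8.77%, 11.7% and 9.60%.

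**Figure D2:**
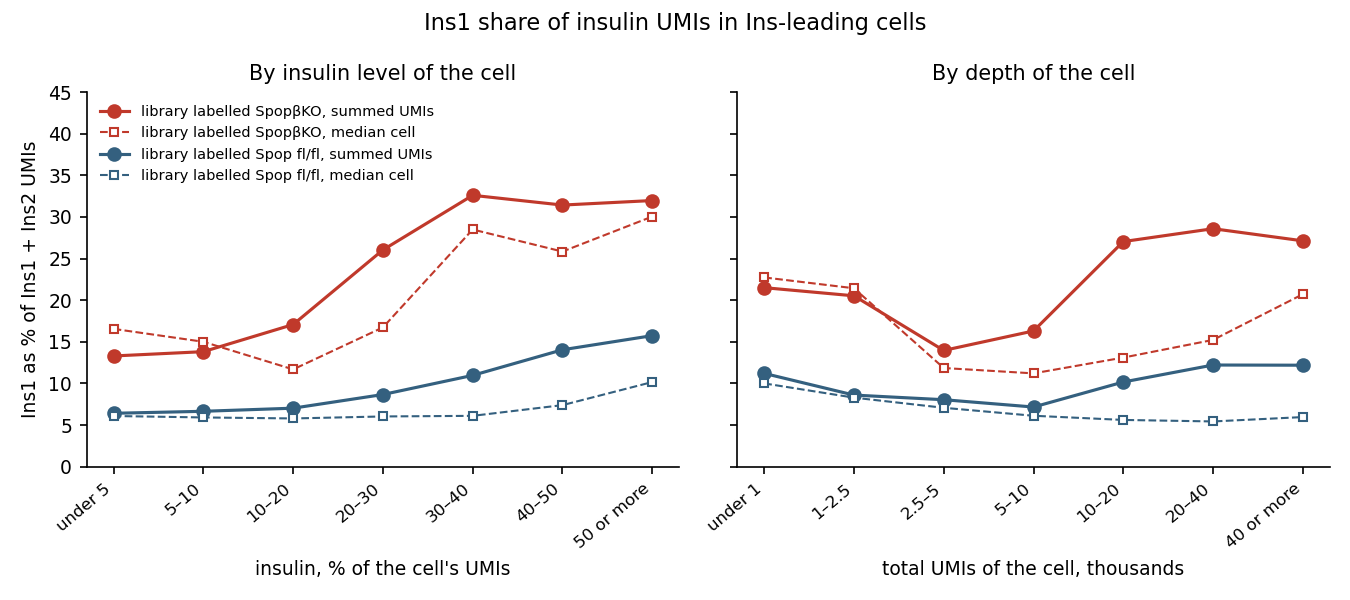
Ins1 as percent of insulin UMIs (y axis) in insulin-leading cells of each library, by insulin as percent of the cell's UMIs (left) and by total UMIs (right), as summed UMIs (filled circles) and in the median cell with at least 20 insulin UMIs (open squares). The SpopβKO-labelled library lies above the Spop fl/fl-labelled library in every band of both panels, and over depth its summed share is lowest, at 14.0%, from 2500 to 5000 UMIs.

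At a fixed depth of 10000 UMIs or more the relation to insulin level was seen as well, again with Ins1 counted on both sides. In cells of 10000 to 20000 UMIs, Ins1 made up 11.5% of insulin UMIs below 5% insulin and 32.0% at 20 to 40% insulin in the SpopβKO-labelled library, and 5.41% and 8.99% in the Spop fl/fl-labelled library. In cells of 20000 UMIs or more with at least 40% insulin the shares were 39.5% (87 cells) and 22.6% (40 cells). In cells of 2500 to 10000 UMIs the spread over insulin bands was small, 12.7 to 18.0% in the SpopβKO-labelled library and 6.32 to 8.42% in the Spop fl/fl-labelled library.

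The Ins1 share was also set against gene lists of beta-cell state, in insulin-leading cells with at least 5000 UMIs cut at quartiles common to both libraries. Maturity genes (Mafa, Slc2a2, G6pc2, Ucn3, Trpm5, Ffar1) mark beta cells that sense glucose and secrete. In the highest maturity quartile Ins1 made up 37.8% of insulin UMIs in the SpopβKO-labelled library (1481 cells) and 21.3% in the Spop fl/fl-labelled library (379 cells). In the lowest quartile the shares were 12.2% (976 cells) and 7.12% (884 cells). The 3 lower quartiles differed little among themselves, 12.2 to 13.8% and 6.26 to 7.58%. The edges between them were 0.00658% and 0.0201% of non-insulin UMIs, and the median cell of the lowest held 0% in both libraries. These quartiles were thus split on very few UMIs, and their likeness is not read as a result. The median cell had 35.3% and 11.2% in the highest quartile and 9.49% and 5.55% in the lowest. The mitochondrial share moved with the list: its median was 4.42% and 4.41% in the highest quartile and 1.01% and 0.878% in the lowest, and its part in the result was not tested.

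Integrated stress response genes (Atf3, Atf4, Ddit3, Trib3, Asns, Chac1, Sesn2, Ppp1r15a) are induced when translation initiation is curbed by phosphorylated eIF2α. Here the order was opposite. In the lowest quartile Ins1 made up 34.2% in the SpopβKO-labelled library (1563 cells) and 18.3% in the Spop fl/fl-labelled library (297 cells), and in the highest 12.4% (668 cells) and 7.18% (1192 cells). Heat shock genes (Hspa1a, Hspa1b, Dnajb1, Hsph1, Hspb1) gave 31.5% and 16.3% in the lowest quartile and 13.1% and 7.33% in the highest. These are summed UMIs, and the median cell differed less. By stress response it had 28.8% and 9.71% in the lowest quartile and 9.13% and 5.41% in the highest. By heat shock it had 17.8% and 6.43% in the lowest and 9.29% and 5.81% in the highest, nearly level in the Spop fl/fl-labelled library. Mitochondrial medians were again higher where Ins1 was, at 3.59% and 2.02% in the lowest stress response quartile and 1.09% and 0.841% in the highest.

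The libraries were spread unequally over these quartiles: the highest maturity quartile held 32.3% of the SpopβKO-labelled cells and 13.3% of the Spop fl/fl-labelled cells, and the highest stress response quartile 14.6% and 41.8%. The same cells were cut once for each list, so the 12 quartile groups are not separate comparisons. Within each of them the SpopβKO-labelled library had the higher Ins1 share, by 5.07 to 16.6 points. A quartile does not hold state equal between the libraries. In the highest maturity quartile the median list share was 0.225% of non-insulin UMIs in the SpopβKO-labelled library and 0.155% in the Spop fl/fl-labelled library. The part of cell state in the difference was not tested. Per 10000 non-insulin UMIs, Ins1 was higher in the SpopβKO-labelled library in all 12 groups, by log2 ratios of 0.57 to 1.87. Ins2 was higher in 6 groups and lower in 6, with log2 ratios of −0.58 to 0.51.

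**Figure D3:**
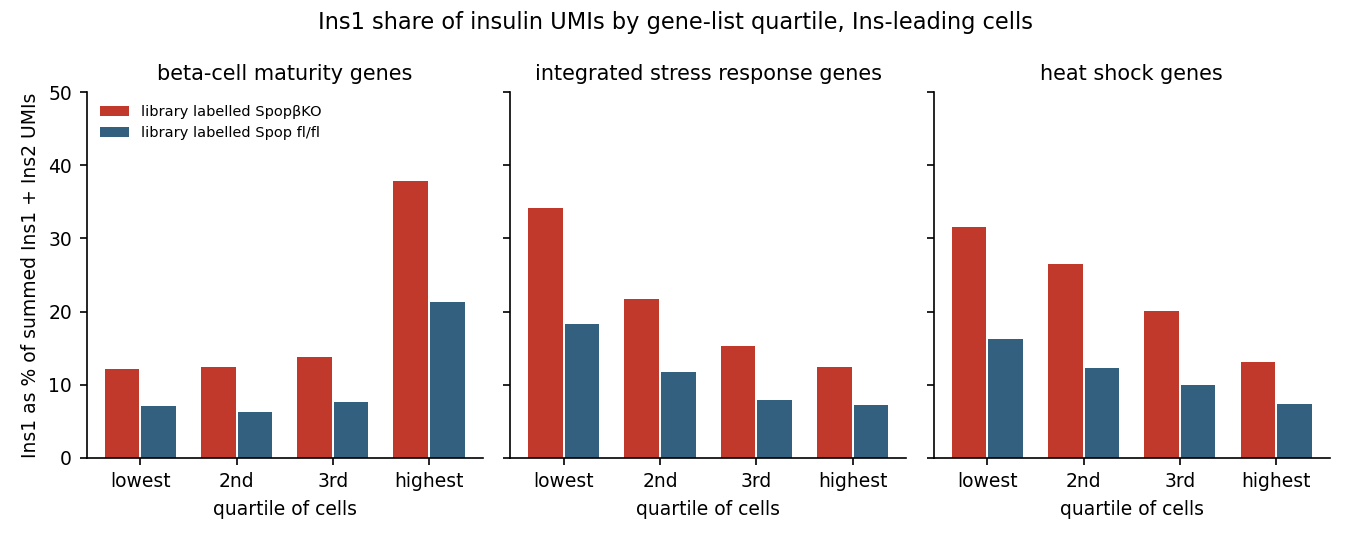
Ins1 as percent of summed insulin UMIs (y axis) in insulin-leading cells with at least 5000 UMIs, by quartile of the summed share of maturity, integrated stress response and heat shock genes in non-insulin UMIs (x axis). The SpopβKO-labelled bar is the taller one in every pair, and the highest maturity quartile stands above the other 3 in both libraries, at 37.8% and 21.3%.

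Insulin RNA was found in nearly every barcode of every class. Glucagon-leading cells had 7 alpha-cell markers at a summed 87548 CPM (SpopβKO-labelled) and 98625 CPM (Spop fl/fl-labelled) before scaling, most of it Gcg itself. Insulin-leading cells had 3835 CPM and 5627 CPM of the same markers. In glucagon-leading cells Ins2 had a UMI in 100% of 1187 cells labelled SpopβKO and in 99.9% of 1873 labelled Spop fl/fl, and Ins1 in 99.7% and 91.7%. A UMI of either insulin gene is therefore not read as expression here. With each cell thinned to 5000 UMIs, Ins1 was detected in 99.9% of 825 and 79.4% of 1556 glucagon-leading cells, and in 99.98% and 99.0% of insulin-leading cells.

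The amount lay below that of insulin-leading cells, which were chosen on insulin, and was alike over several unrelated classes within a library. The median glucagon-leading cell had 62 insulin UMIs in the SpopβKO-labelled library and 22 in the Spop fl/fl-labelled library, against 681 and 697 in insulin-leading cells. Medians of endothelial cells were 59 (21 cells) and 18 (43 cells), and of macrophages 61 (47 cells) and 19 (15 cells). Somatostatin-leading cells, 13 and 7 in number and too few to carry a comparison, had medians of 51 and 17. Barcodes removed for having under 500 genes had medians of 62 and 20 insulin UMIs, although their median total was 686 and 716 UMIs. Pancreatic-polypeptide-leading cells were somewhat higher, at 83 (143 cells) and 36 (150 cells). A few cells lay far above these medians: 6 of the 43 endothelial cells labelled Spop fl/fl held 91.0% of the insulin UMIs of that class. Cells with no leading hormone had medians of 63 (229 cells), level with the others, and 39.5 (752 cells), above them. Mesenchymal cells had 75 (29 cells) and 22 (3 cells). Barcodes removed for mitochondrial UMIs above 15% had 152 and 25.

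**Figure D4:**
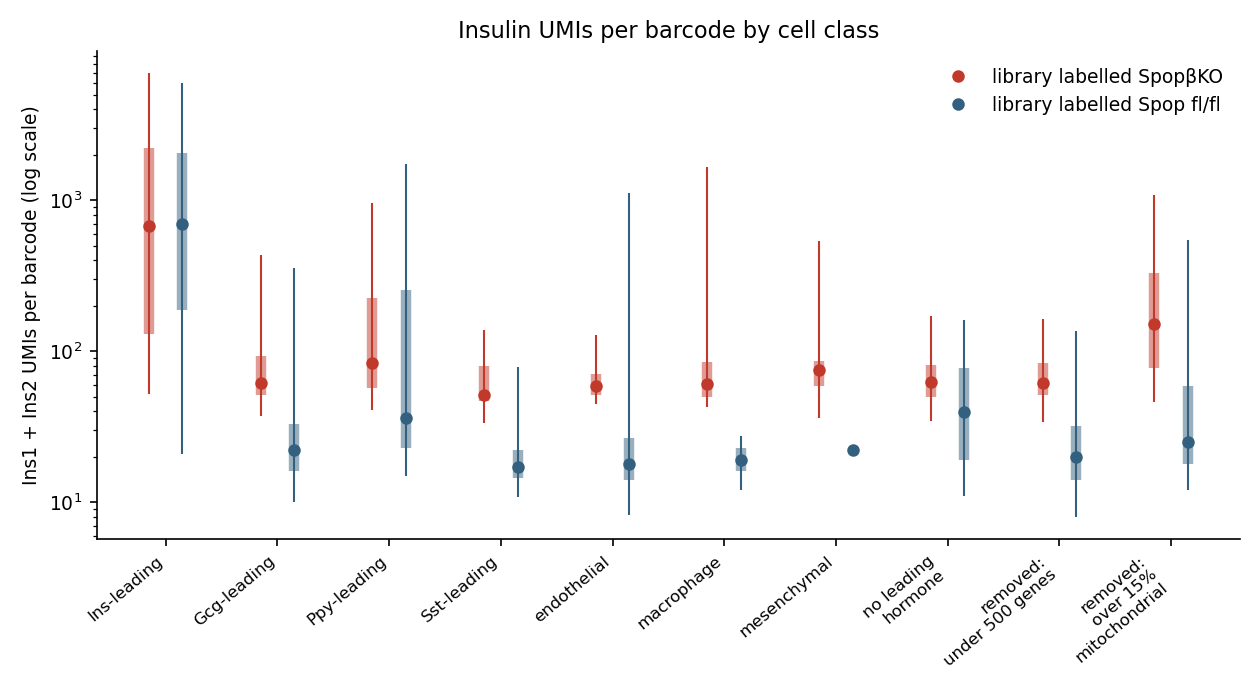
Ins1 plus Ins2 UMIs per barcode (y axis, log scale) by cell class (x axis) in each library, with the median (point), the 25th to 75th percentile (thick bar) and the 5th to 95th percentile (thin line). Outside insulin-leading cells most medians lie close to 60 in the SpopβKO-labelled library and close to 20 in the Spop fl/fl-labelled library.

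In glucagon-leading cells with insulin under 1% of UMIs, Ins1 made up 22.9% of insulin UMIs in the SpopβKO-labelled library and 10.8% in the Spop fl/fl-labelled library. These shares lay nearer to the 25.4% and 10.2% of summed insulin-leading cells than to the 12.6% and 5.88% of the median one. That median was taken only over cells with at least 100 insulin UMIs. Insulin-leading cells below that, with at least 20, had medians of 23.1% and 8.57%. In endothelial, mesenchymal and macrophage cells together, again with insulin under 1% of UMIs, Ins1 made up 24.3% and 8.10%, so here too the Ins1 share was higher in the SpopβKO-labelled library. Barcodes under 500 genes, with no limit on insulin, had 24.7% and 16.5%. In the Spop fl/fl-labelled library these averaged 74.9 insulin UMIs against a median of 20, so insulin-rich barcodes weigh heavily in that share.

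Other hormones gave the reverse view. Gcg had a median of 3 UMIs in insulin-leading cells labelled SpopβKO and of 9 in those labelled Spop fl/fl, the same values as in endothelial cells of each library (3 and 9). Low-level insulin was thus higher, and low-level Gcg lower, in the SpopβKO-labelled library, which also had more insulin-leading cells (81.1% and 58.5%) and fewer glucagon-leading ones (13.4% and 27.3%). How far the cell mix sets these levels was not tested.

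Some glucagon-leading cells held much more insulin. Summed, the class had 116 insulin UMIs per cell in the SpopβKO-labelled library and 78.8 in the Spop fl/fl-labelled library, a log2 ratio of 0.55 (interval 0.54 to 0.56), and these means lay well above the medians of 62 and 22. Cells with insulin at 2% of UMIs or more numbered 172 (14.5%, interval 12.5 to 16.6) and 95 (5.07%, 4.12 to 6.17), and held 41.9% and 53.6% of the insulin UMIs of the class. In the remaining glucagon-leading cells insulin was 78.7 and 38.5 UMIs per cell, and the log2 ratio between libraries 1.03. Whether doublets have a part in this was not tested.

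These insulin-rich cells had a low Ins1 share. Ins1 made up 12.4% of insulin UMIs in them in the SpopβKO-labelled library and 6.17% in the Spop fl/fl-labelled library, against 21.1% and 9.67% in the other glucagon-leading cells. The lower values lay near the 12.6% and 5.88% of the median insulin-leading cell with at least 100 insulin UMIs. Over the whole class Ins1 made up 17.5% and 7.79%, a difference from insulin-leading cells of the same library of −7.93 and −2.42 points. With each cell weighted equally the sign was the opposite, at 3.35 and 3.66 points.

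By depth, the insulin of glucagon-leading cells was flat and then steep. The median was 54 and 16 insulin UMIs at 2500 to 5000 UMIs and 61 and 20 at 5000 to 10000, and then 394 and 84.5 at 20000 to 40000. The summed Ins1 share ran the other way, 24.0% and 12.4% at 2500 to 5000 UMIs against 11.4% and 7.03% at 20000 to 40000. Summed insulin-leading cells of the same depths had 14.0% and 8.04% and then 28.6% and 12.2%, while the median insulin-leading cell of the Spop fl/fl-labelled library was lower in the deeper band, as given above. Pancreatic-polypeptide-leading cells resembled the glucagon-leading ones, with 20.4% (50 cells) and 11.4% (19 cells) at 5000 to 10000 UMIs and 12.4% (28 cells) and 5.27% (52 cells) at 20000 to 40000.

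**Figure D5:**
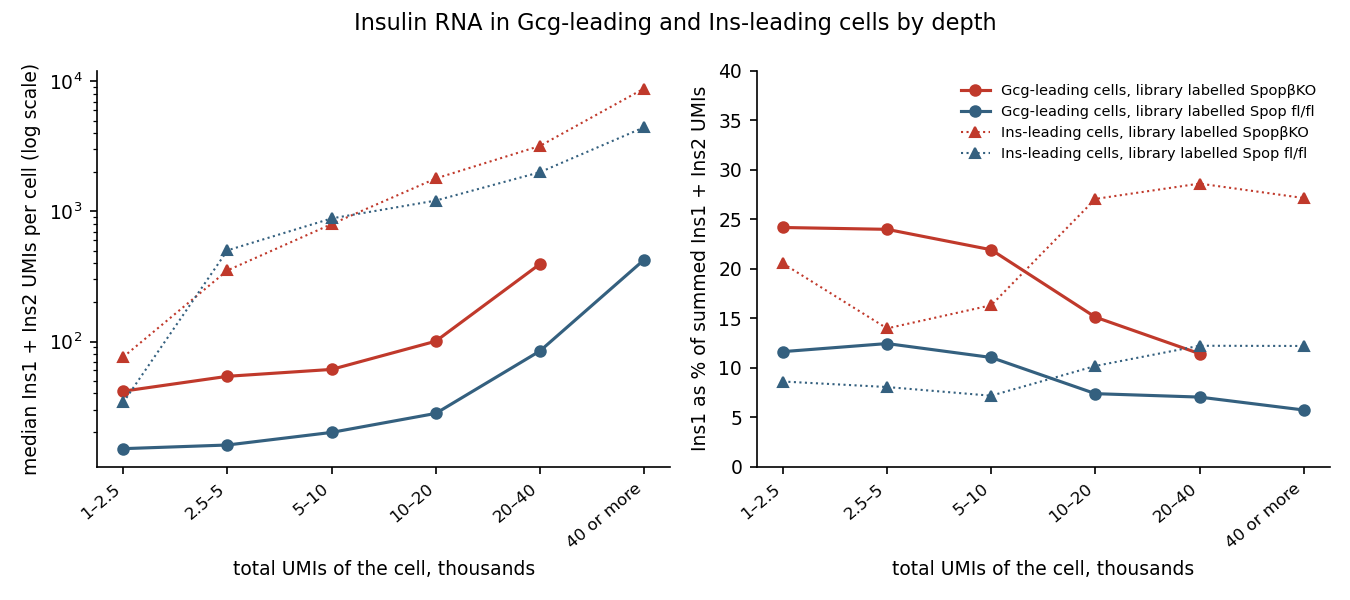
Median insulin UMIs per cell (left, log scale) and Ins1 as percent of summed insulin UMIs (right) by total UMIs of the cell, for glucagon-leading cells (circles) and insulin-leading cells (triangles) of each library; bands with under 20 cells are left out. Insulin per glucagon-leading cell is nearly flat to 10000 UMIs, and the summed Ins1 share of these cells is lower at high depth, where the summed share of insulin-leading cells is higher.

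Genes that act on insulin were then compared between the libraries in insulin-leading cells, on the same scale as above. Of 14 transcription factors listed for insulin genes, 12 reached a mean of 10 CPM. Of these, 11 had a log2 ratio above 0, and the share of all genes above 0 was not counted. Their median log2 ratio was 0.45, against −0.05 over all genes. At least 1.5-fold higher were 2 (16.7%, against 6.23% of all genes), and 0 were lower (3.12% of all genes). The 2 were Mafa, the basic leucine zipper factor of mature beta cells, at 292 CPM in the SpopβKO-labelled library and 182 CPM in the Spop fl/fl-labelled library (log2 0.68, interval 0.64 to 0.72), and Pdx1, the homeodomain factor of A boxes, at 86.4 CPM and 54.1 CPM (log2 0.67, 0.61 to 0.74). Neurod1, a partner at E boxes, had 213 CPM and 147 CPM (log2 0.53). Insm1, a zinc finger factor of endocrine cells, was the one below 0, with 138 CPM and 202 CPM (log2 −0.55).

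Of 19 genes for entry into the endoplasmic reticulum and signal peptide cleavage, 1 was at least 1.5-fold higher (5.26%, near the 6.23% of all genes) and 0 lower (3.12% of all genes), with a median log2 ratio of 0.10. It was Sec11c, a catalytic subunit of the signal peptidase, at 282 CPM in the SpopβKO-labelled library and 180 CPM in the Spop fl/fl-labelled library (log2 0.65, interval 0.61 to 0.69). Of 13 genes for folding of proinsulin, 1 was higher (7.69%, near the 6.23% of all genes) and 2 were lower (15.4%, against 3.12% of all genes), with a median of 0.09. Ero1lb, the pancreatic oxidase of protein disulfide isomerases, had 263 CPM and 153 CPM (log2 0.78, 0.74 to 0.82). Its relative Ero1l had 91.3 CPM and 144 CPM (log2 −0.66, −0.71 to −0.61), and Dnajb9, a co-chaperone of BiP, 194 CPM and 296 CPM (log2 −0.61, −0.64 to −0.58).

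Among the lists, proinsulin processing and storage had the most genes past 1.5-fold. Of 13, 6 were at least 1.5-fold higher and 1 lower, 46.2% and 7.69% of them against 6.23% and 3.12% of all genes, with a median log2 ratio of 0.31. Chgb, a granin of the granule core, had 3040 CPM in the SpopβKO-labelled library and 634 CPM in the Spop fl/fl-labelled library (log2 2.26, interval 2.24 to 2.28). Chga, another granin, had 4810 CPM and 2020 CPM (log2 1.25, 1.24 to 1.26), and Pcsk1, the convertase that cuts proinsulin at the junction of B chain and C-peptide, 150 CPM and 82.7 CPM (log2 0.86, 0.81 to 0.91). Vgf, a secretory granule protein, had 20.4 CPM and 38.4 CPM (log2 −0.91, −1.01 to −0.81). Ptprn2, Iapp and Ptprn were the other 3 higher genes, at log2 ratios of 0.74, 0.73 and 0.63. Cpe, the carboxypeptidase that trims the cut ends, had 1407 CPM and 1863 CPM (log2 −0.41).

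None of 4 RNA-binding proteins described on insulin mRNA was past 1.5-fold in either direction. The same held for the 4 genes of insulin reception and breakdown that reached 10 CPM. Of all genes 6.23% were higher and 3.12% lower, so a set of 4 often holds none. Median log2 ratios were −0.30 and −0.38, in this order. Among the receptors, Igf1r, the receptor of insulin-like growth factor, had 261 CPM in the SpopβKO-labelled library and 388 CPM in the Spop fl/fl-labelled library (log2 −0.57).

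Across insulin-leading cells with at least 5000 non-insulin UMIs, thinned to that number, 680 genes were ranked by the lower of the 2 libraries' Spearman correlations with each insulin gene. The 5 most like Ins1 were Chga (0.60 and 0.48 over 4156 cells labelled SpopβKO and 2506 labelled Spop fl/fl), Scg3 (0.44 and 0.45), Pcsk1n (0.36 and 0.48), Meg3 (0.37 and 0.29) and Chgb (0.50 and 0.25). The 5 most like Ins2 were Chga (0.47 and 0.48), Scg3 (0.41 and 0.45), Pcsk1n (0.41 and 0.55), Scg5 (0.35 and 0.47) and Meg3 (0.28 and 0.25). Both orders share 4 genes, 3 of which encode granins or granin-like proteins of secretory granules, while Meg3 is a long noncoding RNA of an imprinted locus. Mafa, from the list of transcription factors, had 0.50 and 0.15 for Ins1 and 0.28 and 0.04 for Ins2.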

How the data were processed

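Per the file headers, Cell Ranger 6.0.0 wrote the deposited matrices, whose values are whole UMI counts, not normalized. Builds and tools named in the submitters' processing notes are mm10, R 4.1.1 and Seurat 4.1.0. How barcodes were called cells is not given in the sources used here. The counts of each class were added up within a library and set on a CPM scale by TMM (trimmed means of log ratios, after edgeR's definition). Ratios have exact conditional intervals, shares Clopper-Pearson intervals and sums Poisson intervals, all at 95%. UMI intervals cover counting error only, and cells are not replicates. The functions were tested on simulated data. Python 3.11.15, numpy 2.4.6, scipy 1.17.1, pandas 2.3.3, matplotlib 3.10.9 and Biopython 1.88 were used.

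The genes, gene lists and cell rules were chosen with earlier results of these data known. The text names Ins1, Ins2, Spop, Igf2, Th, up to 4 genes per list past 1.5-fold at 10 CPM with the largest ratio, and the 5 genes most like each insulin gene; further list members are named to complete a count or for their role, chosen after their values were seen. Sequences came from RefSeq (promoter) and GENCODE release M21 transcripts on mm10.

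Alternatives were other scales, filters on barcodes, gates and weights, cells thinned to 5000 UMIs, and the deepest 10% of cells left out. Others were chosen after seeing the data: no shared barcodes, a depth minimum, free RNA subtracted at the median of glucagon-leading cells, and a limit on insulin in them.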

Additional observations from a re-analysis of the deposited data

How the results depend on the processing

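No paired analysis was possible because each genotype has 1 library, so no replicate could be left out either. The 6 leading values are, in this order, the Ins1 log2 ratio (1.66) and the Ins2 log2 ratio (0.08) in insulin-leading cells, the difference in Ins1 share (15.2 points), the log2 ratio of insulin per glucagon-leading cell (0.55), and the Ins1 share of glucagon-leading minus insulin-leading cells labelled SpopβKO (−7.93 points) and labelled Spop fl/fl (−2.42 points). Most settings moved the first 4 by more than counting error. Of the last 2, the SpopβKO-labelled value stayed within it under 5 settings, moved under 5 and changed sign under 1. The Spop fl/fl-labelled value stayed within it under 6, moved under 4 and changed sign under 1. The cause was not tested.

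Unscaled CPM gave log2 ratios of 1.635 for Ins1 and 0.05194 for Ins2, and CPM without insulin UMIs 1.69 and 0.11. No barcode filter gave 1.66 and 0.085, a share difference of 15.15 points and an insulin ratio per glucagon-leading cell of 0.63. A minimum of 1000 genes gave 1.715, 0.12, 15.3 points and 0.52. A mitochondrial limit of 10% gave 1.67 and 0.076, with 0.53 per glucagon-leading cell. The gate free of insulin genes gave 2.30, 0.68, 18.2 points, 0.82, −11.7 points and −5.29 points. A leading hormone at 5% gave 1.405, the opposite sign for Ins2 (−0.17), 15.4 points, 0.48 and, in the SpopβKO-labelled library, −6.97 points. With cells weighted equally Ins1 gave 1.42, Ins2 turned to −0.13, the share difference was 11.15 points, and glucagon-leading minus insulin-leading turned to 3.35 and 3.66 points. Without the deepest 10% of cells the values were 1.53, −0.082 (turned), 14.65 points, 0.86, −4.81 points and −0.913 points. Thinning to 5000 UMIs gave 14.45 points and 1.11 per glucagon-leading cell.

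Settings chosen after seeing the data were these. Cells of 5000 UMIs or more gave 1.73, 0.13, 15.5 points, 0.63, −9.49 points and −2.68 points. Free RNA subtracted gave 1.64, 0.046 and 15.3 points. Glucagon-leading cells under 2% insulin gave 1.03, −4.27 points and −0.545 points. Without barcodes found in both libraries no value moved. Over 10 alternatives there were 482 to 774 genes higher and 236 to 390 lower by 1.5-fold, against 523 and 262. In insulin-leading cells under 2500 UMIs, the median insulin counts of 72 and 31 lay near the 62 and 22 of glucagon-leading cells.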

Other observations

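Genes were also ranked by their correlation across cells with the Ins1 share of insulin UMIs, a ranking added after the data were seen. Most like it were Mafa (Spearman rho 0.55 over 4156 cells labelled SpopβKO and 0.23 over 2506 labelled Spop fl/fl), Iapp (0.56 and 0.21), Meg3 (0.30 and 0.18), Pcsk2 (0.49 and 0.18) and Scg3 (0.27 and 0.18). Most opposed were Nupr1 (−0.44 and −0.27), a stress-induced nuclear protein, Hspa9 (−0.41 and −0.21), the mitochondrial chaperone, Ddit3 (−0.54 and −0.21), which encodes CHOP, and the metallothioneins Mt1 (−0.40 and −0.20) and Mt2 (−0.42 and −0.18). Each of these 10 correlations was farther from 0 in the SpopβKO-labelled library.

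The mitochondrial share of a cell moved with the Ins1 share as well. In insulin-leading cells with under 1% mitochondrial UMIs, Ins1 made up 13.5% of insulin UMIs in the SpopβKO-labelled library (2203 cells) and 7.68% in the Spop fl/fl-labelled library (1572 cells). With 5 to 10% mitochondrial UMIs it made up 38.6% (1009 cells) and 21.8% (413 cells). The median cell had 11.7% and 6.00% in the lower band and 26.1% and 7.69% in the upper, so most of the Spop fl/fl-labelled difference was in the sums. In barcodes removed for more than 15%, it made up 30.1% (319 barcodes) and 18.4% (401 barcodes). The SpopβKO-labelled library was higher in all of these, and whether RNA quality has a part in the relation was not tested.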
